A study of Mus musculus with 6 samples.

Results

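The genes described here drive or mark cell division: 43 genes of DNA replication, of the cyclins and cyclin-dependent kinases, of mitosis and cytokinesis, and of the transcription factors that switch these genes on. They were chosen because 1 of them, Ect2, stood far apart in the livers of chromium-restricted offspring, so that the values of Ect2 are a description and carry no test. Of the 43 genes, 41 had a probe set that the array annotation gives to that gene alone, out of 22180 genes measured in this way. Ccnb1 had no such probe set, and the probe set of Ccne2 is shared with Ints8, so neither has a value here.

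RNA from the whole liver of male C57BL mice at 32 weeks of age was hybridised to Affymetrix Mouse Gene 2.0 ST arrays, which carry probes along the length of each transcript. CR-CD mice (3 arrays) were offspring of dams kept on a chromium-restricted diet during pregnancy and lactation, and CD-CD mice (3 arrays) were offspring of dams kept on the control diet; both groups ate the control diet after weaning. No source used here says that the 3 arrays of a group came from separate animals or from separate litters. The p-values thus measure the spread between these arrays.

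Cells divide in a fixed order. Cyclins switch on cyclin-dependent kinases, the MCM helicase is loaded on DNA and opened for replication, the spindle parts the chromosomes, and a ring of actin and myosin then cuts the cell apart. Ect2 acts at that last step: it is an exchange factor that loads the small GTPase RhoA with GTP at the cell's equator, where it is held by centralspindlin, a complex of Racgap1 and the kinesin Kif23. Most hepatocytes of the adult liver are out of the cycle. In rodents many of them carry extra sets of chromosomes after divisions that ended without cytokinesis.

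The deposited values were log2 signals between 3.63 and 13.91, and the median signal of an array lay between 5.48 and 5.54. Hepatocyte markers were bright, with a mean log2 signal of 11.99 to 12.11 over 8 genes on the 6 arrays. CD-CD replicate 1 stood somewhat apart, with a mean correlation of 0.981 to the other arrays, against 0.986 to 0.987 for each of those. Among the 40 division genes other than Ect2, 15 had a mean signal below the median of every array, and these dim signals limit how small a change could be seen. The tissue is a mixture, so that a smaller number of dividing cells and less RNA per dividing cell cannot be told apart.

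Genes of the cycle share short promoter motifs. The E2F motif, bound by E2F factors, was searched as TTTCCCGC, TTTCGCGC, TTTGCCGC and TTTGGCGC. The cell cycle homology region, or CHR, which the DREAM and MuvB complexes bind, was searched as TTTGAA. The CCAAT box, bound by NF-Y, was searched as CCAAT. All were searched on both strands of 300-base windows from 250 bases before to 50 bases after the gene's start, for the 33 of 43 members listed in the RefSeq promoter table (GRCm38.p6). A CHR stood in 12 of 14 promoters of mitosis genes (85.7%) and in 2 of 12 of replication genes, against 18.1% of all 27025 promoters. The E2F motif showed the opposite placing, in 6 of 12 replication promoters and 0 of 14 mitosis promoters, against 2.32% of all promoters. A CCAAT box stood in 26 of the 33 members (78.8%), against 37.9% of all promoters. These matches describe letters in a window and not bound sites.

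The 250 bases before the start are shown for Ect2, for its partners Racgap1 and Kif23, for Mcm10, the gene with the next largest difference, and for Mcm6, a replication gene with E2F motifs. Capitals mark a CCAAT box (CCAAT or ATTGG), a CHR (TTTGAA or its complement) or an E2F motif on either strand.
Ect2 (chr3:27153879-27154128, minus strand): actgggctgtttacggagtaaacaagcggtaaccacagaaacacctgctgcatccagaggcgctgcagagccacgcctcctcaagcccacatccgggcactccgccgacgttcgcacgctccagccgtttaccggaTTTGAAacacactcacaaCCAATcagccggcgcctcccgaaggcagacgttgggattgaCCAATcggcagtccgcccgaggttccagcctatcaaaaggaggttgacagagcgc
Racgap1 (chr15:99651657-99651906, minus strand): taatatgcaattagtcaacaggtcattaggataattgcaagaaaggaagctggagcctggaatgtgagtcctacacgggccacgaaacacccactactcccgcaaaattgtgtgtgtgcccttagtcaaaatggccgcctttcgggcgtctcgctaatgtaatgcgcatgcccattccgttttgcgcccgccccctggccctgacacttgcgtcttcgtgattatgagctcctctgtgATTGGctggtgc
Kif23 (chr9:61946800-61947049, minus strand): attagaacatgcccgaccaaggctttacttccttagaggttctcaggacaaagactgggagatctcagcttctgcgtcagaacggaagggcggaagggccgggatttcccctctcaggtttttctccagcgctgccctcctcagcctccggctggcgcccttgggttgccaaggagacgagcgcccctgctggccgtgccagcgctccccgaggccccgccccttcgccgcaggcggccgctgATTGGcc
Mcm10 (chr2:5012792-5013041, minus strand): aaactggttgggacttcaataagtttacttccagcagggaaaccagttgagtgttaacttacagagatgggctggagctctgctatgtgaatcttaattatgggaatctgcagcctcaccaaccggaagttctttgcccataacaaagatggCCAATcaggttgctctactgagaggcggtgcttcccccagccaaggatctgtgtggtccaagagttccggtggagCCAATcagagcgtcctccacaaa
Mcm6 (chr1:128359706-128359955, minus strand): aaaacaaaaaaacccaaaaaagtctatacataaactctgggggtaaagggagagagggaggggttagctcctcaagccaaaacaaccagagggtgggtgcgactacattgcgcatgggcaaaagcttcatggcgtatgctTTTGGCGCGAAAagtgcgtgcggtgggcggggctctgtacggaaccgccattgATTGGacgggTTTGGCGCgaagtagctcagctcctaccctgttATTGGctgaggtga
The stretch of Ect2 shown held a CHR and a pair of CCAAT boxes, and a further match of each lay in the 50 bases after the start. Those of Racgap1 and Kif23 held a CCAAT box close to the start, and each also had a CHR just after the start, outside the stretch printed. The stretch of Mcm10 held CCAAT boxes and neither a CHR nor an E2F motif. In Mcm6, 2 of the 3 E2F matches overlap as the opposite strands of one stretch.

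Ect2 was several times brighter in CR-CD livers. Its log2 signal was 8.52, 8.59 and 8.56 in CR-CD livers, against 5.93, 5.83 and 5.65 in CD-CD livers. The groups lay far apart and each was tight, with means of 8.56 ± 0.03 in CR-CD livers and 5.80 ± 0.14 in CD-CD livers (SD, n = 3 each). The difference was 2.75 on the log2 scale, or 6.74-fold. The Ect2 values differed from those of the other members in their format also. Most deposited values are the shortest decimal of a single-precision number, but 428 probe sets hold values written with more decimals than that, and the 3 CR-CD values of Ect2 are among them while its 3 CD-CD values are not. Of the 41 measured members, 1 had such values on any array, and it was Ect2.

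The longer format moved with the side that was brighter. Of 232 probe sets with longer values on all 3 CR-CD arrays and on no CD-CD array, 214 were higher in CR-CD livers and 18 lower. Of 147 probe sets with the reverse placing, 8 were higher in CR-CD livers and 139 lower. With all such probe sets left out, 0 of 21878 genes passed an adjusted p of 0.05 (limma), with 1091 genes at an unadjusted p under 0.05. A gene that had another probe set in the usual format was kept with the brightest of those. No source used here says what sets the format, and its part in the Ect2 difference was not tested.

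The other division genes did not share a difference of that size. Of the 40 members other than Ect2, 0 passed an adjusted p of 0.05 (limma, Benjamini-Hochberg over all genes), beside 1.48% of all genes (329 of 22180; 0.784% higher and 0.699% lower in CR-CD livers). Before adjustment, 2 of the 40 were under 0.05, both higher in CR-CD livers (Mcm10 and Kif23), where 6.38% of all genes were (3.26% higher and 3.12% lower). By the methods' t-test with the same adjustment 0 of the 40 passed, beside 1.24% of all genes. The CR-CD arrays lay wholly above the CD-CD arrays for 3 members (Mcm10, Kif23 and Bub1) and wholly below for 0, beside 5.63% and 5.77% of all genes. The study's own thresholds were a fold change of 1.5 with an unadjusted p of 0.05. At these, 1 of the 40 was called by the limma p (Mcm10), beside 1.67% of all genes. The methods' t-test also called 1, but the share of all genes that it called at these thresholds was not counted.

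The intervals bound what could have been missed. The log2 differences of the 40 genes ran between -0.37 for E2f8 and 0.67 for Mcm10, with a median of 0.03, against 0.0017 over all genes. Of the 40, 38 lay within 0.3 of no change on that scale. The 95% interval of the difference included no change in 38 of 40 genes, and its upper bound stayed under 1.5-fold in 36. The highest upper bound was 0.998 (E2f8), followed by 0.96 (Mcm10), both well short of the 2.75 of Ect2. Both bounds lay within 1.5-fold for 34 genes, and the other 6 were Mcm10, Tk1, Ccnd1, Aurkb, Mki67 and E2f8. These intervals are for single genes and are not widened for their number.

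**Figure D1:**
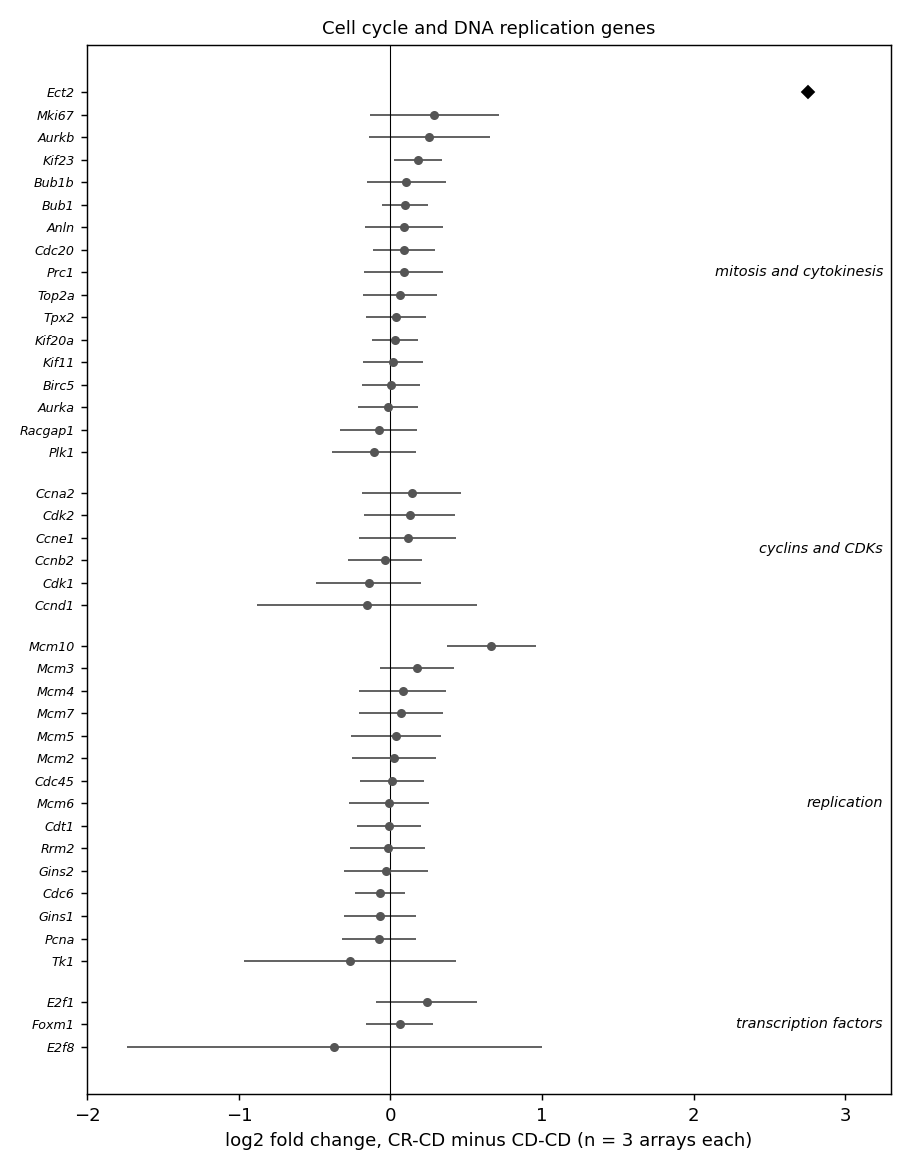
Log2 fold change, CR-CD minus CD-CD (x axis), of the 41 measured division genes (rows, grouped by role, 3 arrays per group). Points are differences and bars 95% intervals from limma; Ect2 (diamond, 2.75) has no interval because its difference chose the list, and the other 40 lie between -0.37 and 0.67.

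**Figure D2:**
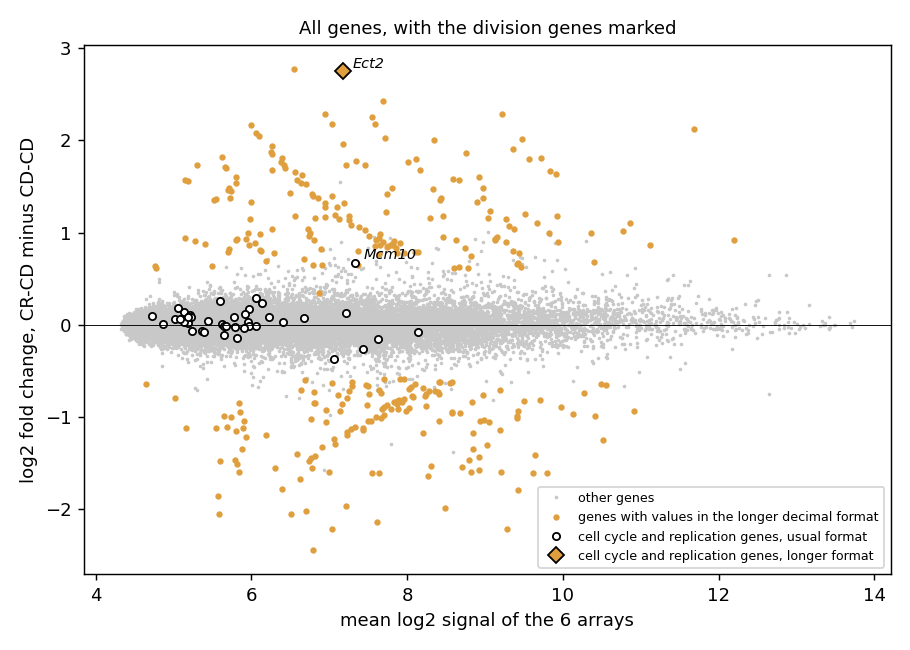
Log2 fold change, CR-CD minus CD-CD (y axis), against the mean log2 signal of the 6 arrays (x axis) for 22180 genes. Orange points are genes with values in the longer decimal format; Ect2 (diamond) lies among them, and the other 40 division genes (white circles) lie within the grey cloud or, for Mcm10 at 0.67, at its upper edge.

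The partners of Ect2 in cytokinesis give the closest comparison. Racgap1, which binds Ect2 and brings it to the spindle midzone, had log2 signals of 5.16, 5.45 and 5.43 in CR-CD livers, against 5.52, 5.29 and 5.46 in CD-CD livers. The groups overlapped, and the difference was -0.08 (95% interval -0.33 to 0.17). Kif23, the motor subunit of centralspindlin, had 5.11, 5.10 and 5.22 in CR-CD livers, against 4.99, 4.95 and 4.95 in CD-CD livers. Every CR-CD value of Kif23 was above every CD-CD value, yet the difference was small at 0.18 (SE 0.07), with an unadjusted p of 0.0299 and an adjusted p of 0.719 (limma). Both genes were dim, with mean signals below the median of every array.

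Anln, the anillin scaffold that ties RhoA to the contractile ring, had 5.07, 5.36 and 5.36 in CR-CD livers, against 5.06, 5.17 and 5.31 in CD-CD livers. Its groups overlapped, with a difference of 0.09 (95% interval -0.17 to 0.35). Plk1, the kinase that licenses the binding of Ect2 to Racgap1, had 5.35, 5.71 and 5.71 in CR-CD livers, against 5.62, 5.66 and 5.81 in CD-CD livers. The difference was -0.11 (95% interval -0.38 to 0.17), and CR-CD replicate 1 was the lowest array. Prc1, which bundles the microtubules of the midzone, had 5.05, 5.46 and 5.18 in CR-CD livers, against 5.20, 5.15 and 5.08 in CD-CD livers. Its difference was 0.09, with CR-CD replicates both above and below all CD-CD arrays.

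Aurkb, the kinase of the chromosomal passenger complex, had 5.43, 5.94 and 5.80 in CR-CD livers, against 5.74, 5.41 and 5.25 in CD-CD livers. The difference was 0.26 with overlapping groups (95% interval -0.14 to 0.66). Birc5, the survivin subunit of the same complex, differed by 0.0034 (95% interval -0.19 to 0.19), and Kif20a, a kinesin of the late spindle, by 0.03. Of these 8 partners in cytokinesis, 6 had differences above 0, beside 50.7% of all genes, and 0 passed the adjusted test, beside 1.48%.

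**Figure D3:**
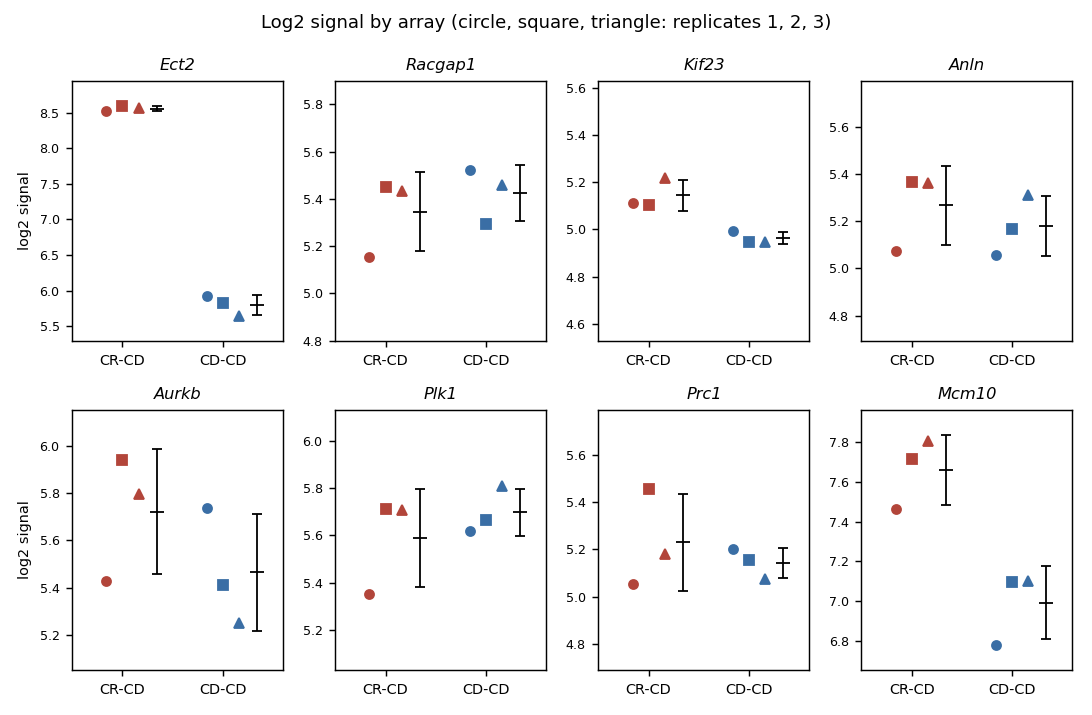
Log2 signal by array (y axes, each with its own range) for Ect2, its cytokinesis partners and Mcm10, with CR-CD left of CD-CD; symbols mark replicates 1, 2 and 3 and the bar beside them the mean ± SD (n = 3). Ect2 at 8.52 to 8.59 in CR-CD livers, against 5.65 to 5.93 in CD-CD livers, has no counterpart among its partners, of which Kif23 alone does not overlap.

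The remaining mitosis genes showed little. Mki67, the marker of cycling cells that coats mitotic chromosomes, had 5.83, 6.54 and 6.23 in CR-CD livers, against 5.87, 6.08 and 5.78 in CD-CD livers. CR-CD replicate 2 was the highest array and CR-CD replicate 1 lay within the CD-CD values, and the difference of 0.29 had a 95% interval of -0.14 to 0.72 and depended on single arrays (0.12 without CR-CD replicate 2, and 0.47 without CR-CD replicate 1). Top2a, the topoisomerase that untangles sister chromosomes, had 4.85, 5.18 and 5.13 in CR-CD livers, against 4.91, 5.05 and 5.01 in CD-CD livers. Its difference was 0.07, with CR-CD arrays on both sides of the CD-CD arrays.

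Bub1, a kinase of the spindle checkpoint, had 4.81, 4.77 and 4.73 in CR-CD livers, against 4.71, 4.67 and 4.64 in CD-CD livers. The groups did not overlap, but by a narrow margin at a very dim signal, and the difference of 0.10 had an adjusted p of 0.910 (limma). Bub1b, its partner in the checkpoint, differed by 0.11 and Cdc20, the activator of the anaphase-promoting complex that the checkpoint holds back, by 0.09. The spindle genes Tpx2 (0.04), Kif11 (0.02) and Aurka (-0.02) had smaller differences still, and the groups overlapped for each. Among the 16 mitosis genes other than Ect2, 13 differences were above 0, beside 50.7% of all genes, with a median of 0.08. CR-CD replicate 2 was the highest array for 6 of the 16. By the median deviation of these genes from their own means, CR-CD replicate 3 was highest (0.09), ahead of CR-CD replicate 2 (0.07). CR-CD replicate 1 was lowest (-0.12).

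Macrophage markers were brightest on CR-CD replicate 2, followed by CR-CD replicates 1 and 3. The mean log2 signal of 8 macrophage and Kupffer cell markers was 8.23, 8.88 and 8.11 in CR-CD livers, against 7.99, 7.86 and 7.37 in CD-CD livers. The differences of all 8 were above 0, with a median of 0.62, beside 50.7% of all genes. By limma 0 passed the adjusted test, beside 1.48% of all genes, and 5 were under 0.05 before adjustment, beside 6.38%. At the study's thresholds 4 of the 8 were called, beside 1.67% of all genes. The CR-CD arrays lay wholly above the CD-CD arrays for 5, beside 5.63%. Their part in the values of Mki67 and the other mitosis genes was not tested. The hepatocyte, lymphocyte, neutrophil, endothelial, stellate, cholangiocyte and erythroid lists had median differences between -0.04 and 0.07, and 0 of their measured markers had an unadjusted p under 0.05.

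The cyclins and their kinases did not move together. Ccnd1, cyclin D1, which carries growth signals into the cycle, was the most variable, with 7.72, 7.24 and 7.69 in CR-CD livers, against 6.98, 8.16 and 7.96 in CD-CD livers. The CD-CD arrays lay on both sides of all CR-CD arrays, and the difference was -0.15 (95% interval -0.88 to 0.57; -0.51 without CD-CD replicate 1, adjusted p = 0.364 by limma). Cdk1, the kinase that drives entry into mitosis, had 5.74, 5.75 and 5.73 in CR-CD livers, against 5.69, 5.72 and 6.23 in CD-CD livers. The CR-CD arrays of Cdk1 were nearly equal, and the difference of -0.14 came with CD-CD replicate 3 above all other arrays.

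Ccna2, cyclin A2, the partner of both kinases in S phase and early mitosis, had 4.95, 5.37 and 5.31 in CR-CD livers, against 4.91, 5.26 and 5.04 in CD-CD livers. The groups overlapped at a difference of 0.14. Cdk2, the kinase of S phase, differed by 0.13, and its activator Ccne1, cyclin E1, by 0.11. Ccnb2, a mitotic cyclin, differed by -0.03. The median over the 6 genes was 0.04, and 0 of 6 had an unadjusted p under 0.05, beside 6.38% of all genes.

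Replication genes show whether the transcripts of DNA copying differed. The MCM2 to MCM7 proteins form the ring of the replicative helicase. Mcm2 had 6.65, 6.40 and 6.20 in CR-CD livers, against 6.37, 6.44 and 6.37 in CD-CD livers. Mcm3 had 6.06, 6.19 and 5.92 in CR-CD livers, against 5.81, 6.04 and 5.80 in CD-CD livers. Both overlapped, with differences of 0.02 for Mcm2 and 0.17 for Mcm3.

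Mcm4 had 6.46, 6.12 and 6.22 in CR-CD livers, against 6.03, 6.36 and 6.17 in CD-CD livers. Mcm5 had 6.18, 6.02 and 5.73 in CR-CD livers, against 5.93, 6.07 and 5.83 in CD-CD livers. Their differences were 0.08 for Mcm4 and 0.03 for Mcm5, each smaller than the spread within either group. Mcm6 had 6.06, 5.97 and 5.86 in CR-CD livers, against 5.75, 6.07 and 6.09 in CD-CD livers. Mcm7 had 6.87, 6.69 and 6.56 in CR-CD livers, against 6.81, 6.47 and 6.63 in CD-CD livers. The differences were -0.01 for Mcm6 and 0.07 for Mcm7, so that the 6 subunits of the helicase lay between -0.01 and 0.17.

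Mcm10 was the exception among the replication genes. It is not part of the ring, and helps to start the helicase and to hold polymerase alpha at the fork. Its log2 signal was 7.46, 7.71 and 7.80 in CR-CD livers, against 6.78, 7.09 and 7.10 in CD-CD livers. All CR-CD arrays lay above all CD-CD arrays, by 0.67 on average (SE 0.13; 1.59-fold), and none of the 6 values was in the longer format. The adjusted p was 0.0723 (limma), so that Mcm10 did not pass. It passed with the replicate number as a block (adjusted p = 0.00966), with variances moderated along signal and robustly (0.0380) and with dim probe sets removed (0.0426). In those 3 settings it alone passed among the members other than Ect2. With the block 1.53% of all genes passed, and with the moderated variances 1.51%. With the filter 2.41% of the 13308 genes kept passed, and dimmer members, such as Kif23 and Bub1, were not tested. It did not pass with quantile normalization (0.138) or by the methods' t-test (0.436). With the longer-format probe sets left out of the fit and adjustment, its adjusted p by limma was 0.949 (0.329 with the replicate block). Its difference stayed at 0.67 and its unadjusted p at 0.0011 (limma), the same as with those probe sets kept. The adjusted p thus moved with the set of genes it was adjusted over, and not with the values of Mcm10.

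The other genes of replication differed little. Pcna, the sliding clamp of the polymerases and the brightest replication gene of the list, had 8.18, 8.10 and 8.01 in CR-CD livers, against 7.98, 8.26 and 8.28 in CD-CD livers. The difference was -0.08 (95% interval -0.32 to 0.17), and the CD-CD arrays lay on both sides of all CR-CD arrays. The loading factors Cdc6 (-0.07) and Cdt1 (-0.01), the helicase partners Cdc45 (0.01), Gins1 (-0.07) and Gins2 (-0.03), and Rrm2 (-0.02), a subunit of ribonucleotide reductase, all had overlapping groups. Over the 15 replication genes the median difference was -0.01, and 1 of 15 had an unadjusted p under 0.05 (Mcm10), beside 6.38% of all genes.

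Tk1, thymidine kinase, which salvages thymidine for S phase, had 7.24, 7.32 and 7.35 in CR-CD livers, against 6.81, 8.01 and 7.89 in CD-CD livers. The CR-CD arrays were tight and lay between the CD-CD arrays, with a difference of -0.27 (SE 0.30). Without CD-CD replicate 1 the difference was -0.65 with an adjusted p of 0.0126 (limma), and Tk1 was then the 1 member of the 40 to pass, beside 1.6% of all genes. CD-CD replicate 1 was the lowest array for 16 of the 40 genes, against 0 to 7 for each of the other arrays.

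Of the transcription factors, E2f8, a repressor of the E2F family that in mice acts in hepatocyte polyploidy, had the widest spread of the list. It had 7.06, 6.92 and 6.63 in CR-CD livers, against 8.72, 6.32 and 6.68 in CD-CD livers. CD-CD replicate 1 was far above the rest here, so that the difference was -0.37 (SE 0.58) with it and 0.37 without it (adjusted p = 0.553 by limma). E2f1, an activator of S-phase genes, had 6.15, 6.26 and 6.37 in CR-CD livers, against 5.76, 6.01 and 6.30 in CD-CD livers. Its difference was 0.24, and CD-CD replicate 3 lay among the CR-CD arrays. Foxm1, the factor that with MuvB turns on mitosis genes, had 5.11, 5.13 and 5.09 in CR-CD livers, against 4.91, 5.01 and 5.23 in CD-CD livers. Its CR-CD arrays fell within the CD-CD range, at a difference of 0.06 (95% interval -0.16 to 0.28).

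**Figure D4:**
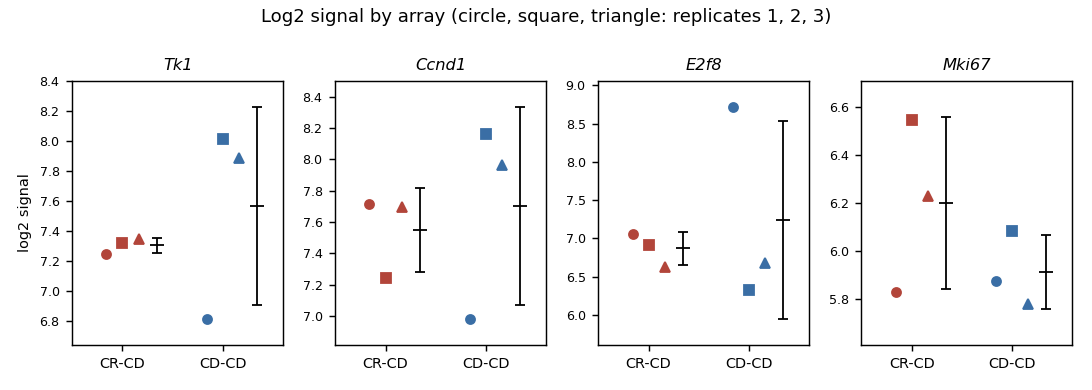
Log2 signal by array (y axes, each with its own range) for Tk1, Ccnd1, E2f8 and Mki67, with CR-CD left of CD-CD; symbols mark replicates 1, 2 and 3 and the bar beside them the mean ± SD (n = 3). CD-CD replicate 1 (circle) is the lowest array for Tk1 (6.81) and Ccnd1 (6.98) and the highest for E2f8 (8.72), and CR-CD replicate 2 (square) is the highest for Mki67 (6.54).

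Further genes of the same pathways were set beside the members. Of 53 other replication genes measured (57 listed), 0 passed the adjusted test as higher and 1 as lower in CR-CD livers, Tyms, beside 0.784% and 0.699% of all genes. Before adjustment 6 of the 53 were under 0.05, beside 6.38% of all genes, and the median difference was 0.02. Tyms, thymidylate synthase, makes anew the thymidine nucleotide that Tk1 makes from salvaged thymidine. Tyms had 6.87, 6.69 and 6.76 in CR-CD livers, against 7.85, 7.92 and 7.89 in CD-CD livers. It fell by 1.12 on the log2 scale (SE 0.07, adjusted p = 0.00023 by limma), and its values were in the longer format on the 3 CD-CD arrays, the brighter side. The next by p were Pold4 (0.33, adjusted p = 0.398) and Orc5 (0.32) on the higher side and Pola2 (-0.27) on the lower.

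Of 86 other mitosis genes measured (92 listed), 0 passed in either direction, beside 1.48% of all genes, and 1 had an unadjusted p under 0.05, beside 6.38%, with a median difference of 0.03. The smallest unadjusted p values belonged to Cenpq (difference 0.31) and Ckap5 (0.18) on the higher side and to Haspin (-0.11) and Mad1l1 (-0.12) on the lower. Of 42 genes of G1 control and CDK inhibition (45 listed), 1 passed as higher and 0 as lower, beside 0.784% and 0.699% of all genes. Before adjustment 5 of the 42 were under 0.05, beside 6.38% of all genes, and the median was -0.04. The one that passed was Ccng1, cyclin G1, a target of p53 that is not known to drive the cycle as the other cyclins do. It had 10.75, 10.71 and 10.74 in CR-CD livers, against 8.87, 9.19 and 9.23 in CD-CD livers, a difference of 1.64 (SE 0.11, adjusted p = 0.000214 by limma), and its values were in the longer format on the 3 CR-CD arrays. On the lower side of that list Btg2 had the smallest p, with a difference of -0.41, and it did not pass. Its unadjusted p was 0.0152 and its adjusted p 0.569 (limma), with all CR-CD arrays below all CD-CD arrays. A part of p53 in the Ccng1 difference was not tested. Ect2, Tyms and Ccng1 thus all had longer-format values on their brighter side. They are not particular in holding such values, which 315 of the 329 genes that passed also held. Without longer-format probe sets these lists held 0 genes that passed.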

How the data were processed

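The authors hybridised liver RNA to Affymetrix Mouse Gene 2.0 ST arrays and processed the signals in GeneSpring; the deposited table holds log2 signals for 33793 probe sets on 6 arrays, and the exact summarization behind it is not given in the sources used here. The platform annotation gave 23521 probe sets 1 symbol, 1820 several and 8452 none. For each gene the brightest probe set with exactly 1 symbol was kept (22180 genes), and CR-CD was set against CD-CD by lmFit and eBayes of the limma package (version 3.58.1, R 4.3.3), with Benjamini-Hochberg adjustment over all genes at 0.05 and 95% intervals from the moderated statistic. The code was tested on simulated data.

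The members and all gene lists were chosen with earlier results of these data known. The genes named were all members and, from the further lists, those past the adjusted p and genes from among the 2 with the smallest unadjusted p each way. A further list that was fitted with the others is not reported here. A value counted as longer-format when it was not the shortest decimal of a single-precision number. The replicate numbers in the labels are shared by both groups: deviations of same-numbered arrays correlated at 0.407, 0.208 and 0.201, each over 0.1, though CR-CD replicate 3 with CD-CD replicate 2 (0.261) and CR-CD replicate 2 with CD-CD replicate 3 (0.107) did too. By the rule that every same-numbered pair exceed 0.1, the numbers were treated as pairs in an alternative with a replicate block. Other alternatives were the methods' t-test, trended and robust variances, quantile normalization, median centring and a filter at the 40th percentile of signal. The rest were other probe set rules, leaving out longer-format probe sets and leaving out each array. Array signals carry no count, so only the 3 arrays per group set the precision.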

Additional observations from a re-analysis of the deposited data

How the results depend on the processing

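Of 889 gene values compared over 16 alternative settings, 884 kept their place, 0 lost a call and 0 called values changed sign; 4 were newly called (Mcm10 in 3 settings, Tk1 in 1) and 1 uncalled value of a gene not reported here moved by more than the spread between arrays. Among the 40 members other than Ect2, 22 uncalled differences changed sign under some setting. The number of those 40 that passed was 0 outside the following settings. It was 1 (Mcm10 each time) with trended and robust variances, with the filter on dim probe sets and with the replicate block. The filter left the dimmer members untested. Leaving out each array in turn gave 0 to 1, the 1 being Tk1 without CD-CD replicate 1. With the replicate block 339 of all genes passed, against 329 without it, and pairing changed no call of a member other than Mcm10. With longer-format probe sets left out, 0 of all genes left passed, and 0 with that and the replicate block. The other replication and G1 lists then held 0 genes each that passed, again with and without the block, against 1 each. The medians of the replication, cyclin and mitosis genes moved by less than the spread between arrays.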

Other observations

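Rrm2 was the 1 member with a second probe set that the annotation gives to 1 gene alone. That probe set averaged 4.50 in CR-CD livers and 4.54 in CD-CD livers and differed by -0.03 (SE 0.09), beside -0.02 for the brighter one.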
